A study of Mus musculus with 2 samples.

Results

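Oxidative phosphorylation is the last stage of aerobic energy supply, in which respiratory complexes I to IV pass electrons to oxygen and ATP synthase, complex V, makes ATP from the proton gradient they build. Complexes I, III, IV and V are assembled from subunits of both genomes: a few hydrophobic core proteins are encoded in mitochondrial DNA, and all other subunits are made from nuclear genes and imported. Complex II (succinate dehydrogenase) is nuclear only. In the embryonic forebrain this machinery works beside an active glycolysis, and the balance between them is known to differ between dividing progenitors and neurons. The genes described here were chosen by symbol alone: mitochondrial Nd, Co, Cytb and Atp messages and nuclear Nduf, Uqcr, Cox4 to Cox8, Atp5 and Sdh genes. That rule found 107 entries among 43346 mouse genes, of which 42462 carried a symbol. They comprised 13 mitochondrial messages, 81 nuclear structural subunits, 10 pseudogene entries, and 3 genes that are no structural subunit, namely Cox7a2l, a factor of respiratory supercomplexes, Ndufa4l2, a paralog of Ndufa4, and Atp5s, which is only named after the synthase. Some subunits lie outside the rule, and 3 of these were measured at high levels: Usmg5 (a small synthase subunit) at 1265 ± 37.0 TPM, Ndufab1 (the acyl carrier subunit of complex I) at 438 ± 1.27, and Cyc1 (cytochrome c1 of complex III) at 324 ± 9.57 (SD, n = 2).

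The material was forebrain of mouse embryos at day 15.5, strain B6NCrl, healthy, of both sexes pooled, with no treatment or genetic change in the labels. Replicate 1 was a pool of 78 embryos and replicate 2 a pool of 62, labelled as separate biological replicates with 1 library each. The labels also give both pools the same donor identifier, so how far the spread between the libraries (SD, n = 2) is biological or technical is not known. Total RNA over 200 nucleotides was sequenced from 10 ng with spike-in transcripts, and the estimated counts summed to 38720511 and 35103430 reads. There was 1 group and no contrast, so no test was made: with 2 libraries the smallest two-sided exact sign-flip p is 0.5. Levels are TPM (each transcript's share of all transcripts, corrected for length), given as replicate 1 and then replicate 2 or as mean ± SD (n = 2). In a bulk tissue a gene's level cannot tell fewer cells from less RNA per cell. All 7 forebrain markers were at 1 TPM or more in both libraries, led by the neuronal tubulin Tubb3 at 1512 and 1507 TPM. Of the other marker lists, 9 muscle genes summed to 11.3 TPM in replicate 1 and 24.2 in replicate 2 (9.32 and 5.82 without Actc1), 2 liver genes to 0.04 and 6.14, 2 brown fat genes to 1.23 and 0.76, and 4 testis genes to 0.23 and 0.20.

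Several of these levels depend on how reads are divided among like sequences: 16 of the 94 structural subunits have near-identical copies elsewhere in the genome. A copy was counted where at least 80% of another annotated transcript matched the subunit's coding transcript on the same strand at 99% identity or more. By this rule 7 of the 13 mitochondrial messages and 9 of the 81 nuclear subunits had copies, in 19 pairs. The mitochondrial copies all belong to a single block of the nuclear genome at chr1:24611535-24616197 (mm10, minus strand, 4663 bases), annotated as unprocessed pseudogenes. The nuclear ones are scattered, and most are annotated as processed pseudogenes, which are intronless copies of a spliced message. The following pairs are shown because the deposited tables assign the copy a higher level than the gene. The stretch printed is the first 60 coding bases, and gene and copy are identical through 783, 390 and 309 bases.
mt-Co3: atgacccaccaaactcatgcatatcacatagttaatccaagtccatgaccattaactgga
Gm28437: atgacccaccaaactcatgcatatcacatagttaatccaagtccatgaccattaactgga
Ndufb4: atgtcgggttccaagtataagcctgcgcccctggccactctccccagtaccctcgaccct
Ndufb4c: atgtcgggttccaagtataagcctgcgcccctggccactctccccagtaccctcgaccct
Atp5l: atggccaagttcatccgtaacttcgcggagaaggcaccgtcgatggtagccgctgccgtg
Gm10221: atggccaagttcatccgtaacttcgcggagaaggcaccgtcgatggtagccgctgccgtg

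Other pairs differ at a single base. The copy of mt-Nd3 differs near its beginning (T3C, counted from the first coding base), and the copy of Atp5g1, a gene for the c ring of ATP synthase, near its end (G385A). The capitals below mark these positions.
mt-Nd3: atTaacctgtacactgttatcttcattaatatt
Gm28438: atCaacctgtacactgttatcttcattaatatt
Atp5g1: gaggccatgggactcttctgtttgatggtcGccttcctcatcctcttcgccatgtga
Gm10039: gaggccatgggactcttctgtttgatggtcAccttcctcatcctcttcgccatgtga
A read from such a stretch fits gene and copy alike unless it covers the differing base. How the deposited estimates were divided between them is therefore uncertain, and the levels of these genes are given below both as annotated and with their copies added.

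Taking the entries as annotated, nearly the whole machinery was abundant. Of the 107 entries, 95 reached 1 TPM in both libraries, against 34.4% of all mouse genes, and 85 reached 100 TPM in both, against 3.94%. Among the 81 nuclear structural subunits, 77 reached 1 TPM and 71 reached 100 TPM, and 72 stood among the highest 10% of the 21474 protein-coding genes. The 4 subunits that missed 1 TPM in either library were Cox6a2, Cox7b2, Cox8b and Cox8c, all tissue-restricted paralogs of complex IV. The median nuclear subunit stood at 286 TPM in replicate 1 and 296 in replicate 2, while the median protein-coding gene was at 4.76 on the mean of both. The median mitochondrial message stood at 1235 and 1172 TPM. On the log2(TPM + 0.1) scale the mitochondrial median exceeded the nuclear one by 2.06 ± 0.086 (SD, n = 2), a 4.16-fold difference that was far larger than the spread between the libraries. With the copies added to their mitochondrial genes it was 2.82.

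**Figure D1:**
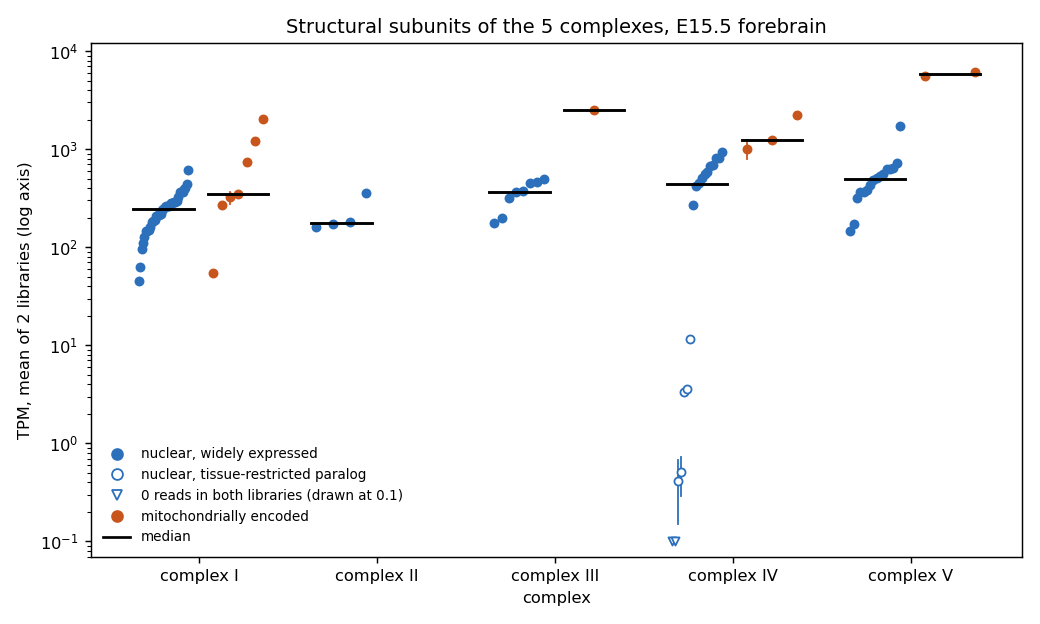
Level of each structural subunit by complex (x axis) in TPM on a log axis (y axis); points are means of the 2 libraries, thin vertical lines join their values and black bars are medians. Nuclear subunits other than the open tissue-restricted paralogs sit between 45.3 and 1717 TPM, and the mitochondrial messages reach 6110.

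By complex, the nuclear medians were lowest in complex II and highest in complex V. Complex II stood at 178 and 175 TPM, complex I at 243 and 252, complex III at 352 and 383, complex IV at 434 and 440, and complex V at 478 and 515. The gap between the highest and the lowest complex was 1.49 ± 0.095 on the log2 scale (SD, n = 2), larger than the spread between the libraries. The place of complex IV depends on its tissue-restricted members: without its 7 restricted paralogs the other 11 subunits had a median of 584 and 586 TPM, above complex V. Within complexes the mitochondrial messages stood above the nuclear ones by unequal amounts, by 0.51 ± 0.13 (log2) in complex I, 1.51 ± 0.036 in complex IV and 3.56 ± 0.11 in complex V. With copies added to the mitochondrial genes these gaps were 1.599, 3.40 and 3.77, and as log2 CPM (read counts scaled to depth without length correction) 1.67, 2.09 and 2.26. The 3.40 of complex IV rests on the sum for mt-Co1, whose copy is much shorter than the gene, so its size is uncertain. As annotated, the mitochondrial median of complex IV was mt-Co2 in replicate 1 (1235 TPM) and mt-Co3 in replicate 2 (1297 TPM). The SD of 0.036 therefore compares different genes and does not measure the spread of either. All these complex IV gaps include the restricted paralogs on the nuclear side. Without them the nuclear log2 median was 9.19 instead of 8.77, against a mitochondrial 10.3, so the gap as annotated was smaller. As a part of the library the 13 mitochondrial messages took 2.37 ± 0.071% of TPM, somewhat less than the 81 nuclear subunits at 2.78 ± 0.056%; with copies added this order turned, at 4.06 ± 0.019% and 2.98 ± 0.066%.

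Transcript length runs through these comparisons. Over the 74 nuclear subunits that are not tissue-restricted, the Spearman correlation of length with TPM was -0.49, and with CPM it was 0.42. Both are descriptions across genes of the same libraries. On the log2 CPM scale complex I ranked lowest at 6.49 and complex II stood at 7.35, so the order of the complexes holds per length only. Orders within complexes turned in part as well. As CPM, Sdha (280 and 276) stood above Sdhb (224 and 233), and Uqcrc1 (294 and 297) above Uqcrq (107 and 111). In complex I the core subunit Ndufs1 (132 and 131) stood above the accessory Ndufc1 (91.1 and 94.3). The orders within complexes given below are by TPM, and medians of their parts were not compared as CPM.

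The 13 mitochondrial coding genes lie on long transcripts of the whole circle, 12 on one strand and mt-Nd6 on the other. Each gene is counted here as 1 message, although some neighbours overlap, as mt-Nd4l and mt-Nd4 do by 7 bases. Whether such neighbours lie on 1 shared RNA cannot be told from these levels. As annotated the 13 ranged over 113-fold, with mt-Nd4l lowest. The highest were the genes for ATP synthase subunits 6 and 8, mt-Atp6 at 6261 and 5959 TPM and mt-Atp8 at 5672 and 5528, which ranked 3 and 7 among protein-coding genes. These adjoining genes share 43 bases of the same strand, shown in capitals because reads there belong to both (chrM:7887-8009, mm10, plus strand).
mt-Atp8/mt-Atp6: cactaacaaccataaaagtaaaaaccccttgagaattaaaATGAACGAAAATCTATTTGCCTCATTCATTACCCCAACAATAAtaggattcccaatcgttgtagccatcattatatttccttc

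Next came mt-Cytb, cytochrome b of complex III, at 2508 and 2525 TPM. It has no counted copy and its libraries differed by little. The catalytic subunit 1 of cytochrome oxidase, mt-Co1, followed at 2232 and 2284. Its partners mt-Co2 and mt-Co3 stood at 1235 and 796, and at 1191 and 1297. Among the 7 membrane subunits of complex I, mt-Nd1 was highest at 2094 and 2012 TPM, then mt-Nd4 at 1247 and 1172 and mt-Nd2 at 743 and 738. The other 4 lay lower: mt-Nd3 at 366 and 279, mt-Nd6 at 361 and 336, mt-Nd5 at 281 and 261, and mt-Nd4l at 51.3 and 57.3. In this lower group mt-Nd3 and mt-Nd6 did not differ beyond their spread. The genes mt-Nd5 and mt-Nd6 overlap by 14 bases on opposite strands, and whether the counting used strand is not stated.

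Adding the copies reordered the mitochondrial messages. For 5 of the 7 genes the copy stood above the gene in both libraries. The entry Gm28437, identical to 783 of the 784 bases of mt-Co3, held 7772 and 7724 TPM, or 86.7% and 85.6% of the pair. With it mt-Co3 moved from the middle of the order to the top, at 8992 ± 40.7 TPM (SD, n = 2). The copy Gm10925 held 1983 and 2096 TPM and brought mt-Atp6 to 8149 ± 133. Gm29216 matches 483 bases of mt-Co1 and held 2331 and 2350 TPM, for a sum of 4599 ± 50.2. This copy is much shorter than the gene, so the sum of their TPM values is not the level of 1 transcript. Gm28661, identical to mt-Co2 over 681 bases, held 2518 and 2984, for a sum of 3766 ± 18.6.

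The copies of the short complex I messages took most of their pairs as well. Gm10222 held 92.9% and 91.8% of the pair with mt-Nd4l, which moved from 54.3 ± 4.21 to 707 ± 15.2 TPM. Gm28438 held 76.3% and 83.2% of the pair with mt-Nd3, which moved from 322 ± 61.4 to 1603 ± 83.7. By contrast the copy of mt-Nd4, Gm28439, held 0.36 and 0.19 TPM although 876 bases were identical. With copies added, mt-Nd5 became the lowest message at 271 ± 13.9 TPM.

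The deposited credibility intervals, whose level is not stated, were wide for the same genes. In replicate 1 the interval of mt-Co3 ran from 705 to 6491 TPM, that of mt-Co2 from 1079 to 2749 and that of mt-Nd4l from 16.5 to 117. The posterior mean of mt-Co3 was 2802 and 3060 TPM, well above its maximum-likelihood values. Of the 90 structural subunits at 1 TPM or more in both libraries, only 7 had an interval spanning over 1.5-fold in replicate 1: mt-Nd3, mt-Nd4l, mt-Co2, mt-Co3, mt-Atp6, Cox4i2 and Cox7a1. The 5 mitochondrial ones all have copies, and the other pair had few reads.

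**Figure D2:**
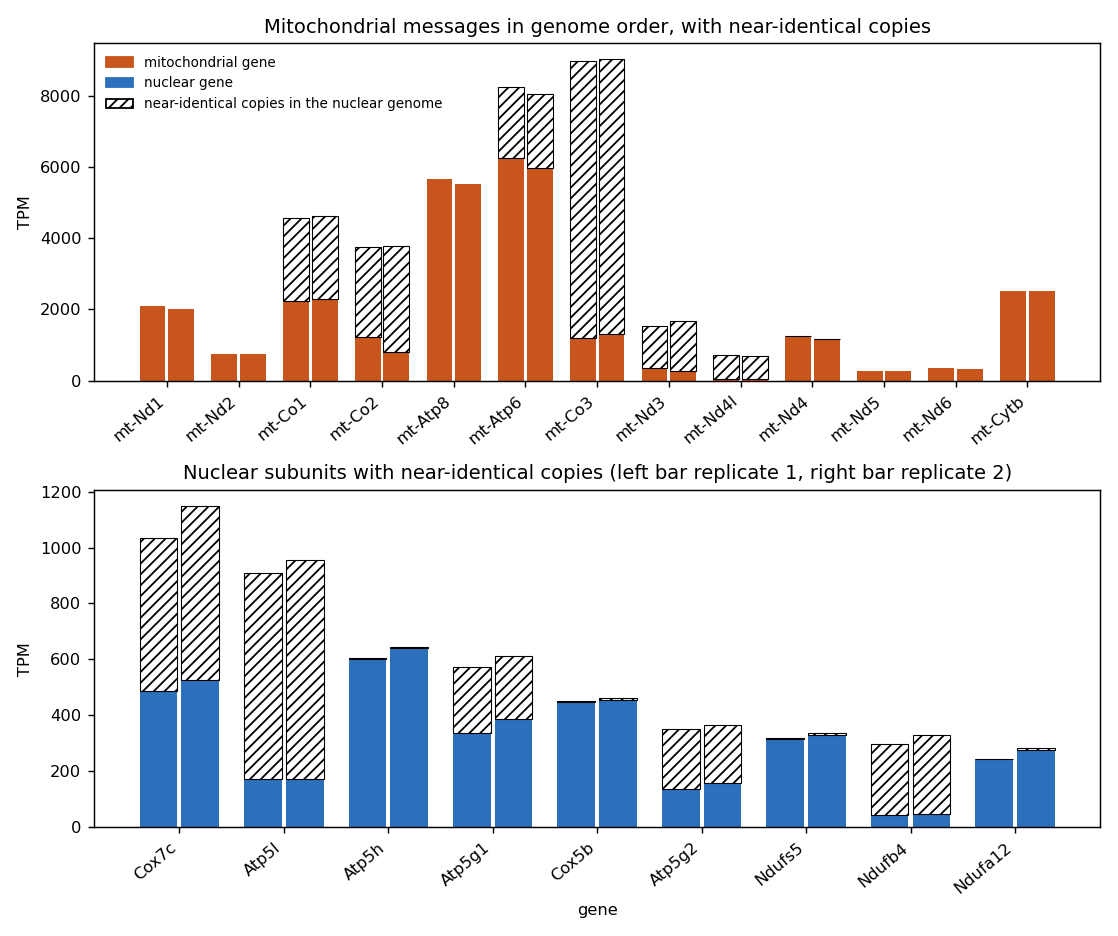
TPM (y axis) of the 13 mitochondrial messages in genome order (top) and of the 9 nuclear subunits that have copies (bottom), with replicate 1 as the left and replicate 2 as the right bar; hatched parts are the TPM of near-identical copies. The hatched part is the larger one in both libraries for 5 mitochondrial messages and 4 nuclear subunits, among them mt-Co3, mt-Nd4l, Ndufb4 and Atp5l.

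The same held for a few nuclear subunits. Among their 12 copies, 5 held 100 TPM or more in both libraries. Ndufb4, an accessory subunit of complex I, was annotated at 43.6 and 47.0 TPM, the lowest of all 35 nuclear subunits of that complex, while Ndufb4c held 255 and 284. Their sum of 315 ± 22.6 lay above the complex I median. The copy is shorter than the gene (390 against 611 bases in replicate 1), so this sum is not the level of 1 transcript. A level of the pair at a common length was not computed. Atp5l, subunit g of the synthase membrane part, stood at 174 and 172 TPM and its copy Gm10221 at 733 and 785. Cox7c, a small subunit of complex IV, stood at 487 and 525 and Gm12338, which matches 192 of its bases, at 539 and 617. Gm12338 is only 192 bases long and had fewer reads (1173 and 1234) than Cox7c (4450 and 4344). Its higher TPM thus depends on its short length, and the sum of both carries the same limit as that of Ndufb4. For the c-ring genes Atp5g1 and Atp5g2 the copies Gm10039 and Gm10175 held 235 and 228, and 214 and 208 TPM. All other pseudogene entries found by the symbol rule were low: Cox6c2 stood at 4.19 and 5.10 TPM and the 8 others under 1 TPM in both libraries, among them Uqcrh-ps2 with 0 reads.

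In complex I, 35 nuclear subunits surround the mitochondrial core. The 7 nuclear core subunits carry the flavin and iron-sulfur centres that take electrons from NADH. Their median was 185 and 190 TPM, below that of the 28 accessory subunits at 259 and 274. Ndufv2 was highest of the core at 265 and 267 TPM, then Ndufs7 (216 and 205), Ndufv1 (190 and 190), Ndufs3 (183 and 177) and Ndufs8 (125 and 128). Ndufs1, the largest core subunit, was lowest at 96.2 and 97.3.

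The accessory subunits of complex I led the nuclear part of it in TPM. Ndufc1 stood at 608 and 622 TPM, Ndufb9 at 433 and 446, Ndufa1, which is encoded on the X chromosome, at 373 and 429, and Ndufc2 at 382 and 396. In all, 30 of the 35 subunits lay within 2-fold of the complex median. Besides Ndufb4, the accessory subunit Ndufa11 was low at 61.7 and 64.5 TPM. Its only transcript in the files is 2661 bases long, and a long model lowers TPM at a given number of reads.

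Complex II oxidises succinate and feeds electrons to ubiquinone. Its iron-sulfur subunit Sdhb stood at 355 and 365 TPM, above the flavoprotein Sdha at 182 and 177. The membrane anchors Sdhc and Sdhd stood at 174 and 172, and at 157 and 166. Sdha, Sdhc and Sdhd lay close together and Sdhb apart from them in both libraries.

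In complex III the small subunits had the highest TPM. Uqcrq stood at 487 and 507 TPM, Uqcr11 at 457 and 475, Uqcr10 at 446 and 460 and Uqcrh at 351 and 391. The core proteins Uqcrc1 and Uqcrc2 stood at 318 and 319, and at 180 and 178. The Rieske iron-sulfur protein Uqcrfs1, which passes electrons to cytochrome c1, was at 204 and 193. The lowest of the 8, Uqcrc2, lay 2.78-fold below the highest. The soluble carrier cytochrome c, Cycs, which links complexes III and IV, stood lower than any of them at 53.9 and 53.5 TPM, and its testis form Cyct at 0.31 and 0. Cycs had 3550 and 3228 reads, close to the 3525 and 3331 of Uqcr10, so its low place holds per length only. Copies of Cycs were not searched for.

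Complex V had the single highest nuclear subunit. Atp5b, the catalytic beta subunit of the F1 head (chr10:128083273-128090391), stood at 1744 and 1691 TPM, and Atp5a1, its alpha partner, at 658 and 621. The gamma subunit Atp5c1 of the rotating stalk stood at 442 and 430. In the assembled enzyme alpha and beta occur in equal number, and their messages differed here by more than the spread between the libraries. Atp5j and Atp5h of the peripheral stalk stood at 622 and 626, and at 602 and 640. Below 200 TPM were only Atp5l and Atp5g2, both with copies. The inhibitor of the synthase, Atpif1, which the rule does not reach, stood at 911 and 1016.

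The c ring is encoded by 3 genes whose mature products are alike. Translated from the reference transcripts, their last 78 residues are identical, yet the coding bases of that part differ from Atp5g3 at 51 positions in Atp5g1 and at 54 in Atp5g2. The last 90 coding bases are shown because these differences let reads be told apart; capitals mark the 24 positions at which the genes differ.
Atp5g1: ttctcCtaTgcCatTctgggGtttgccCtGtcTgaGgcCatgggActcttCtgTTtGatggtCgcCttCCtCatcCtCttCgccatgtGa
Atp5g2: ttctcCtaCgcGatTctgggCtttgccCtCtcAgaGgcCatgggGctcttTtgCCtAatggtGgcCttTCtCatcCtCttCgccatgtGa
Atp5g3: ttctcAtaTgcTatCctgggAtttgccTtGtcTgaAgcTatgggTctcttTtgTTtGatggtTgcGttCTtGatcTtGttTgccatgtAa
Atp5g3 was highest at 735 and 726 TPM, then Atp5g1 at 339 and 386 and Atp5g2 at 138 and 157. Atp5g3 exceeded Atp5g1 by 1.01 ± 0.15 on the log2 scale and Atp5g2 by 2.31 ± 0.14 (SD, n = 2). These gaps shrank to 0.30 and 1.03 with the copies of Atp5g1 and Atp5g2 added, so the order held but not its size. Those copies are shorter than the genes, so the gaps with copies carry the limit given above for sums of TPM.

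Complex IV carries most of the tissue-specific subunits, which replace a widely expressed partner in muscle, testis, lung or vessel walls. In the forebrain the widely expressed member of every pair was far above its paralog. Cox6b1 was the highest nuclear subunit of the complex at 917 and 954 TPM, then Cox4i1 (806 and 819), Cox6a1 (803 and 820) and Ndufa4 (678 and 707). The 11 widely expressed subunits spanned 3.45-fold, down to Cox7b at 269 and 273, while Cox5a (584 and 586), Cox5b (449 and 456) and Cox6c (666 and 693) lay between.

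The 7 restricted subunits of complex IV stood between 0 and 11.7 TPM. Cox4i2, the lung and oxygen-responsive form of subunit 4, was measured at 3.61 and 3.55 TPM from 53 and 48 reads, so Cox4i1 exceeded it by 7.79 ± 0.033 (log2). Cox6b2, a testis form, stood at 11.7 and 11.4 TPM from 107 and 99 reads, 6.33 ± 0.068 below Cox6b1. Cox7a1, the heart and muscle form, had 19 and 21 reads (3.06 and 3.69 TPM), 6.92 ± 0.17 below Cox7a2. Ndufa4l2, a hypoxia-responsive paralog of Ndufa4, stood at 12.0 and 12.9 TPM and was the closest of the 8 pairs, 5.79 ± 0.031 below it.

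The remaining restricted members were at the limit of detection. Cox6a2, the muscle form of subunit 6a, had 2 and 8 reads (0.15 and 0.67 TPM), and Cox7b2 had 3 and 7 (0.29 and 0.73). Their ratios to Cox6a1 and Cox7b, 10.6 ± 1.13 and 8.80 ± 0.76, moved with these few reads. Cox8b and Cox8c had 0 reads in both libraries. Taking 3 reads as the limit of each, Cox8a at 550 and 564 TPM was at least 1127-fold and 1064-fold higher than Cox8b, and at least 1616-fold and 1525-fold higher than Cox8c. The limits cover counting error only.

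Paralogs share far less sequence than the pseudogene copies. The longest run of identical bases was 9 to 14 for the complex IV pairs, 28 for Ndufa4 and Ndufa4l2, and 9 to 21 among the c-ring genes, shorter than the 100 bases that the deposited effective lengths, length minus 99, take for a fragment. Markers of the tissues in which the paralogs are known gave these values. Of the 6 mural cell genes (smooth muscle and pericytes), all reached 1 TPM in both libraries, Rgs5 being highest at 15.0 and 15.5 TPM, and they summed to 47.2 and 47.0; their part in the levels of Cox4i2 and Ndufa4l2 was not tested. Of the 9 muscle genes, 3 reached 1 TPM in both, with Actc1 at 1.96 and 18.4 TPM and the muscle regulator Myog at 0.18 and 0.03. Of the 8 genes besides Actc1, 6 were lower in replicate 2, among them Acta1 at 5.83 and 3.17. The 2 that were higher, like Actc1, were Myh6 at 0.07 and 0.27 and Myh7 at 1.32 and 1.46. The part of muscle in the level of Cox6a2 was not tested. Of the 4 testis genes, Tnp1 and Pgk2 were at 0 in both libraries and Prm1 was at 0.23 and 0.13, while Cox6b2 was at the level given above.

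**Figure D3:**
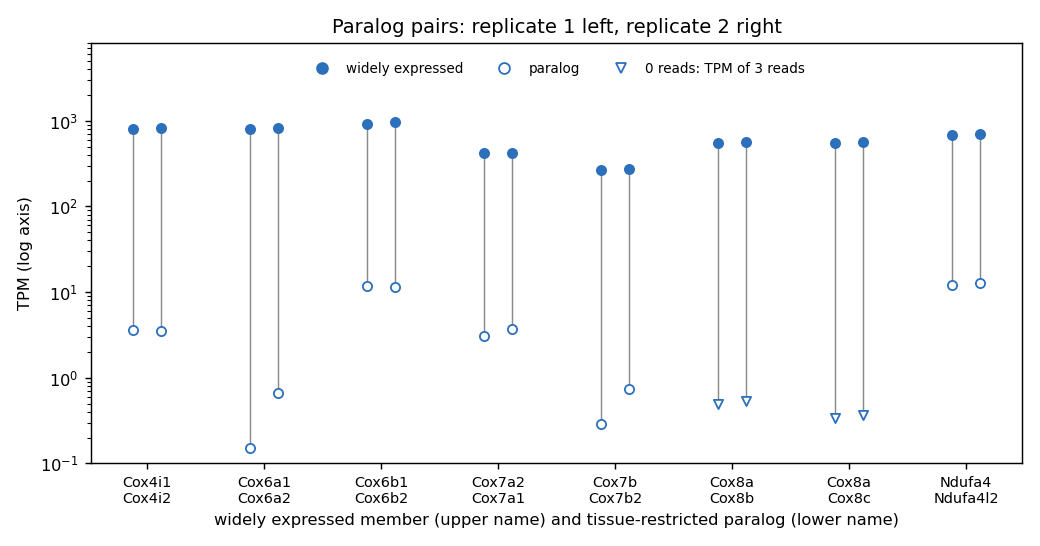
TPM on a log axis (y axis) of 8 pairs of a widely expressed subunit (filled) and its tissue-restricted paralog (open), with replicate 1 left and replicate 2 right; triangles mark 0 reads and are drawn at the TPM of 3 reads. The filled points lie at 269 TPM or above and all open points at 12.9 or below.

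The pools gave closely similar levels for most of the machinery. The log2 ratio of replicate 2 to replicate 1, from counts scaled by TMM (a factor that aligns the bulk of genes), had a median of 0.06 over the 79 nuclear subunits whose counts summed to at least 10, and of -0.04 over the 13 mitochondrial messages. Over all 19165 such genes it was 0.00. Ratios past 1.5-fold were seen for 2 of the 79 nuclear subunits and 1 of the 13 mitochondrial messages, against 11.3% of all genes tested. Of the 1708 genes at 100 TPM or more in both libraries, 3 (0.176%) passed. At that level 1 of 83 structural subunits, mt-Co2, passed, and their median absolute log2 ratio was 0.060 against 0.047. The 2 nuclear ones were Cox6a2 and Cox7b2, with 10 reads each in all. The 74 widely expressed nuclear subunits all lay between -0.06 and 0.22, and 59 of them were higher in replicate 2. So were 9588 of all 19165 genes tested, and 977 of the 1708 genes at 100 TPM or more.

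Among members at a mean of 5 TPM or more, the largest ratios in favour of replicate 2 were those of Ndufa1 (0.22), Ndufa12 (0.22) and Ndufb4 (0.22). The largest in favour of replicate 1 were mt-Co2 (-0.62), mt-Nd3 (-0.37) and mt-Nd6 (-0.09). Both mt-Co2 and mt-Nd3 have copies, which differed the other way between the libraries. In TPM the log2 ratio of mt-Co2 was -0.63, and that of mt-Co2 with its copy was 0.01. For mt-Nd3 it was -0.39, and 0.11 with its copy. Scaling to the spike-ins instead of TMM moved the median ratio of all genes from 0.00 to 0.20, and the mitochondrial median then became 0.16 and the nuclear one 0.26. This shift is the same for every gene, so it cannot alter differences from the median of all genes. Under either scaling the nuclear median was 0.06 above that of all genes and the mitochondrial one 0.04 below.

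**Figure D4:**
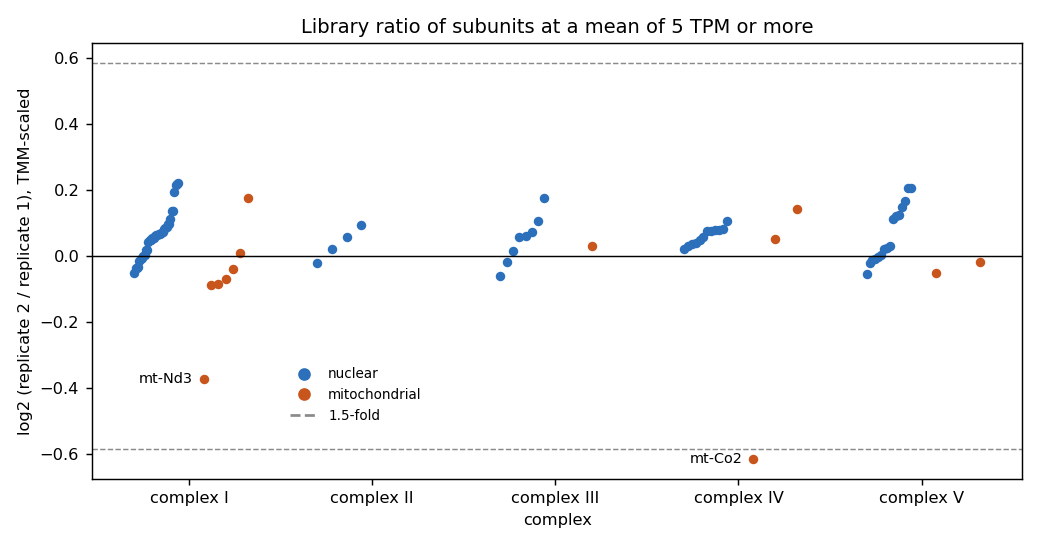
Log2 ratio of replicate 2 to replicate 1 (y axis, TMM-scaled counts) of structural subunits at a mean of 5 TPM or more, by complex (x axis); dashed lines mark 1.5-fold. Only mt-Co2 at -0.62 lies past the dashed lines, and mt-Nd3 at -0.37 is the next lowest.

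Gene totals include transcripts that encode no subunit. Of the 90 structural subunits at 1 TPM or more in both libraries, 70 had 90% or more of their TPM in transcripts annotated as protein-coding in both. A group of 7 had under 50% in both, and they were named after their values were seen. In Ndufa5 the coding transcripts held 11.1% and 10.6%, and the main transcript, Ndufa5-204, is annotated as a processed transcript without an open reading frame, at 231 and 241 TPM. Ndufa10 had 16.9% and 18.2% coding, with a retained-intron transcript as the largest part. The main transcript of Atp5j, a retained-intron model, held 61.3% and 61.4% of the gene, and that of Atp5f1, a model annotated for nonsense-mediated decay, 61.5% and 62.0%. Cox5b, Cox7b and Ndufb4 had coding shares of 36.5% and 37.9%, 41.1% and 42.6%, and 28.8% and 35.4%.

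Several subunits had no dominant transcript. The main one held under 60% of the gene in both libraries for 8: Cox5b, Cox6b2, Cox7b, Ndufa10, Ndufb5, Ndufc1, Ndufs1 and Ndufv1. The main transcript of Cox6b2, with few reads, held 28.2% and 34.9%, and that of Ndufa10 34.5% and 27.8%, less than in the other 6 genes. In Ndufc1 the main transcript held 51.3% and 50.2%, and the coding share was 52.1% and 51.0%. The coding transcripts of Ndufc1 summed to 317 TPM in both libraries, so by coding transcripts alone Ndufb9 was above it. Short transcript models have small effective lengths, and the division of a gene among them is an estimate.

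**Figure D5:**
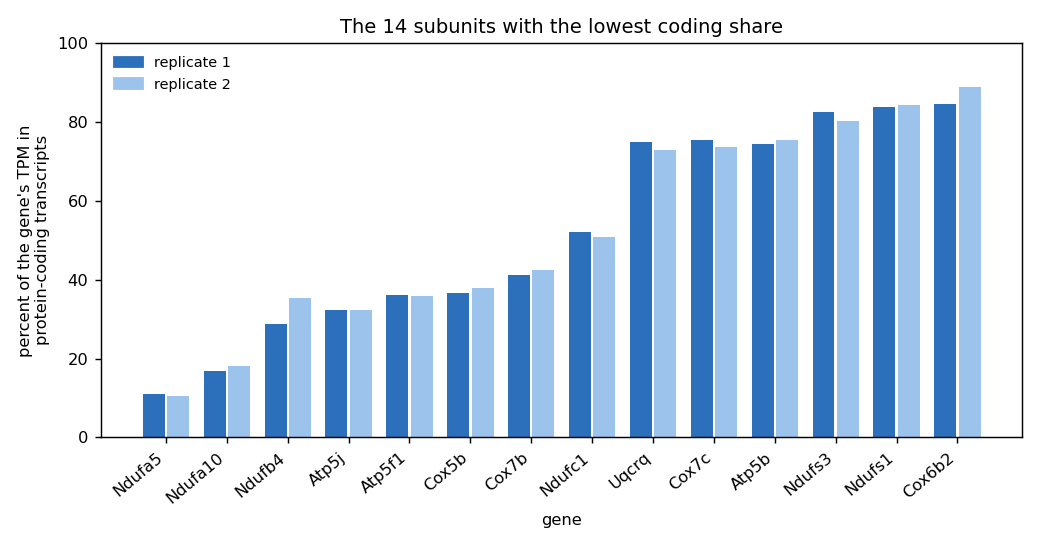
Percent of a gene's TPM in transcripts annotated as protein-coding (y axis) for the 14 structural subunits with the lowest share, with replicate 1 and replicate 2 as paired bars. Ndufa5 is lowest at 11.1% and 10.6%, and the 7 leftmost genes lie under 50% in both libraries.

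Overlapping genes add a further limit. Of the structural subunits, 26 share exonic bases with a gene on the opposite strand, and for 16 of these that gene reached a mean of 10 TPM. Reads of the partners cannot be told apart if strand was not used. Examples are Cox4i1 with Emc8 (154 shared bases, Emc8 at 136 and 144 TPM), Atp5f1 with Wdr77 (337 bases, 87.4 and 95.9 TPM) and Atp5j with Gabpa, a gene for a transcription factor that is itself known to act on such subunits (397 bases, 21.8 and 22.0 TPM). The opposite gene was above the subunit for Ndufs1, which shares 9 bases with Eef1b2, and for mt-Nd5, which mt-Nd6 overlaps.

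Lists of genes that build and regulate the complexes had lower median TPM than the nuclear subunits of any complex. Single members such as Uqcc2 and Slirp stood above some subunits, and levels without length correction were not compared. The 14 assembly factors of complex I had a median of 33.5 TPM, and all reached 1 TPM in both libraries without any reaching 100. Ndufaf3 (67.4 and 57.0), Ndufaf2 (59.97 and 62.6) and Ecsit (47.3 and 46.5) were highest and Nubpl lowest at 7.64 and 8.96. Of the 19 assembly factors of complex IV, 18 reached 1 TPM in both and 3 reached 100, namely Coa3 (172 and 174), Cox14 (145 and 157) and Cox20 (116 and 124). The copper chaperone Sco2 stood at 8.12 and 7.23, and Pet117 was lowest at 0 and 0.44. The 6 factors of complex III had a median of 37.9 TPM, with Uqcc2 at 231 and 244, Uqcc1 at 64.1 and 50.7, Uqcc3 at 45.4 and 50.5, and Lyrm7 lowest at 10.5 and 12.3.

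The lists for complexes II and V were short. Among 4 factors of complex II, Sdhaf4 stood at 84.8 and 92.7 TPM, Sdhaf2 at 25.9 and 24.9, Sdhaf1 at 17.5 and 17.9 and Sdhaf3 at 5.10 and 5.73. Among 3 of complex V, Tmem70 stood at 67.2 and 65.4, Atpaf2 at 41.3 and 41.0 and Atpaf1 at 27.1 and 29.5.

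The 14 genes for copying, transcribing and processing mitochondrial DNA and RNA had a median of 30.2 TPM. Slirp, which with Lrpprc stabilises mitochondrial messages, was highest at 206 and 226, then the DNA-binding protein Ssbp1 (107 and 113) and Mterf3 (68.1 and 65.4). Tfam, which packages mitochondrial DNA and starts its transcription, stood at 51.8 and 50.2, the RNA polymerase Polrmt at 37.5 and 36.3, and Mterf1a was lowest at 7.62 and 6.47. Of the 8 regulators of mitochondrial biogenesis, Nrf1 (49.0 and 46.3), Gabpb1 (48.0 and 47.1) and Gabpa were highest. The coactivators Ppargc1a and Ppargc1b were lowest, at 6.45 and 5.74, and at 1.11 and 0.98. In no list of assembly, expression or regulation genes did a member with at least 10 reads in all pass 1.5-fold between the libraries. The mitochondrial ribosomal RNAs mt-Rnr2 and mt-Rnr1 stood at 3707 and 3535, and at 1118 and 1083 TPM.

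Promoters of nuclear subunits were searched for cores of 3 factors known to act on respiratory genes, NRF1 (GCGCATGCG), the ETS family that includes GABPA (CCGGAAGT) and YY1 (AAGATGGCG), on either strand. RefSeq windows (GRCm38.p6) of 250 bases before to 50 after the start were at hand for 65 of the 81 subunits, in 70 promoters. The NRF1 letters were in 8 of the 70 promoters (11.4%) and in 1.75% of all 32851 promoters. The YY1 letters were in 7 (10.0%) against 1.40%, and the ETS letters in 5 (7.14%) against 3.89%. In all, 19 of the 65 genes held at least 1 of the motifs, and none of the 4 tissue-restricted subunits in the table did. The median levels of genes with and without the letters were 267 and 289 TPM for NRF1, 299.6 and 287 for YY1, and 466 and 283 for ETS. A match is a description of sequence and no binding site.

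The promoters of Uqcr11 and Atp5g2 are shown from 120 bases before to 30 after the start, the first because it held both ETS and NRF1 letters and the second because the NRF1 letters occur there on both strands, offset by 1 base. Capitals mark the motifs. Uqcr11 lies at chr10:80406792-80406941 and Atp5g2 at chr15:102671018-102671167, both on the minus strand.
Uqcr11: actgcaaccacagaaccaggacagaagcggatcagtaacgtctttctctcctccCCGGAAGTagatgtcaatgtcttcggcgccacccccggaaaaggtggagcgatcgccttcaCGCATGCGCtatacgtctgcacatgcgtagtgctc
Atp5g2: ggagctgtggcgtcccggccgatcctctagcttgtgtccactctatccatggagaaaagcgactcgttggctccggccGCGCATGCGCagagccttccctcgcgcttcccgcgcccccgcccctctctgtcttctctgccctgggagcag

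The YY1 letters lay in a narrow place. In 6 of 7 genes they were on the gene's own strand and began 23 to 36 bases after the start, and in the other, Atp5j, 88 bases before it. Over all promoters, 209 of 477 matches (43.8%) were on the gene's strand after the start. Of these 6 windows, 5 are shown, with 8 bases on each side.
Ndufc1: tgcggaacAAGATGGCGccgtccgt
Atp5j2: aggacttcAAGATGGCGtcactcgg
Ndufa9: tgtgggagAAGATGGCGgccgccgt
Ndufs7: ccgaggccAAGATGGCGgcgctggc
Ndufs6: tcaccggcAAGATGGCGgcggtgct
The window of Ndufs4 reaches the end of the table's sequence. The genes with these letters ranged from Ndufs4 at a mean of 109 TPM to Atp5j at 624.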

How the data were processed

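The values are estimated reads, TPM and isoform percentages of 2 libraries, as deposited. Per the notes deposited with the files, the assembly was mm10 and the annotation GENCODE M4; which aligner and quantifier were used, and whether strand was, is not stated there. Expected counts, as the authors gave them, estimate reads and need not be whole. The deposited TPM values scale them by effective length (length minus 99) over all entries, spike-ins included; maximum-likelihood and posterior mean values and other columns of interval bounds were deposited too. Deposited percent values express a transcript as a part of its gene. The labels name total RNA and link a manual of a low-input cDNA kit; the priming is not stated.

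Entries were joined to symbols by identifier without version (98.0% of mouse genes). The members and lists were chosen with earlier results of these data known. Coordinates and transcript types were read from GENCODE M21, also on mm10, whose models differ in part from M4. Subunit classes and restricted paralogs were assigned from textbook knowledge. Levels are medians of log2(mean TPM + 0.1). Expected counts were rounded, scaled by TMM (edgeR 4.0.16 under R 4.3.3) over genes whose counts summed to at least 10, and log2 ratios were taken after adding 0.5 reads. These steps were tested on simulated data. Copies were found with BLAST 2.17.0 on M21 transcripts, at 99% identity over 100 bases or more and 80% of the copy. A count of 0 was given a limit of 3 reads. Named were all mitochondrial messages, the 4 highest, the lowest and the core nuclear subunits of each complex, paralog pairs, members under 1 TPM, the 3 largest library ratios each way (mean of 5 TPM, 100 summed reads), divided transcripts (main one under 60%), and the 3 highest and the lowest of each pathway list. Further names were picked with their values in view. A core subunit of complex I that the rule names is not reported here. Alternatives used DESeq2 1.42.0, spike-in scaling, other pseudocounts, thresholds, lengths and single libraries. Tables and figures were made with matplotlib 3.10.9, scipy 1.17.1, pandas 2.3.3 and numpy 2.4.6 in Python 3.11.15.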

Additional observations from a re-analysis of the deposited data

How the results depend on the processing

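On the log2 scale the nuclear median of 8.19 became 8.15 with posterior mean TPM, 6.65 as CPM without length correction, 8.07 with annotated lengths, 7.55 as a mean over members, 8.06 with protein-coding transcripts only, 8.33 without tissue-restricted paralogs and 8.32 with copies added to all members. The mitochondrial median of 10.2 became 10.7 with posterior means, 8.73 without length correction, 9.93 as a mean, and 11.0 with copies added. Their difference of 2.06 was 2.59 with posterior means, 2.18 with annotated lengths, 2.38 as a mean, 2.18 with coding transcripts only, 2.82 with copies added to mitochondrial genes and 2.69 with copies added to all. The gap between the highest and lowest complex, 1.49, was 1.32 with annotated lengths and 1.62 with copies. It was 1.03 without length correction, where complex I was lowest, and 3.30 as a mean, where complex IV was lowest. The mitochondrial share of 2.37% was 2.51% without spike-ins and transfer RNA entries, 0.985% of expected counts and 4.06% with copies; the nuclear share of 2.78% was 2.94%, 1.19% and 2.98%. The smallest paralog gap, 5.79, was 5.69 with a pseudocount of 1 and 4.65 without length correction. Spike-in scaling moved the nuclear library ratio from 0.06 to 0.26 and the mitochondrial one from -0.04 to 0.16. Adding copies to mitochondrial genes was planned for the difference between the genomes; the other additions of copies were chosen after seeing the data. In all, 89 of 201 recomputed values moved by more than the spread between libraries (for library ratios, more than the median size of the ratio among genes at 100 TPM or more). Orders between groups did turn: the mitochondrial share passed the nuclear one with copies added, complex II (7.35) passed complex I (6.49) as CPM, and complex IV (7.98) was below complex III (8.48) with coding transcripts only. As a mean over members, restricted paralogs included, complex IV (5.55) fell below complex II (7.69).

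With 1 library left out, the nuclear median ran from 8.16 to 8.21, the mitochondrial from 10.2 to 10.3, their difference from 1.99 to 2.11, the complex gap from 1.42 to 1.56, the mitochondrial share from 2.32% to 2.42%, the nuclear share from 2.74% to 2.82% and the smallest paralog gap from 5.77 to 5.81. The number of detected members, 95, was 95 at 0.5 TPM and 92 at 5 TPM. No paired analysis was possible because the series has 1 group. Depth limits Cox6a2, Cox7b2, Cox8b and Cox8c, each with 8 or fewer reads a library.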
